A study of Mus musculus with 6 samples.

Results

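A set of 8 genes of prostaglandin synthesis and signalling was followed in mouse tissue that the labels call the paraventricular nucleus, a hypothalamic centre of hormone release and autonomic control, in 3 wild-type (WT) libraries and 3 libraries from mice with ADAM17 knocked out in glutamatergic neurons (KO). They are the cyclooxygenase genes Ptgs1 and Ptgs2, the synthase genes Ptges, Ptges2, Ptges3 and Ptgds, and the prostaglandin E receptor genes Ptger3 and Ptger4, that is 8 of the 51826 genes in the deposited table, found there by name. The set was chosen by the measured difference of Ptgs2 between KO and WT, so that difference is given as a description without a test, while the other 7 genes were taken as its pathway. Of the 3 libraries of a genotype, replicates 1 and 2 are male and replicate F1 is female, and the values of males are given in the order of their numbers. The labels name neither strain, age, the driver of the knockout nor the number of mice behind a library, and state no treatment for either genotype. ADAM17 is a membrane protease that cuts cytokines, growth factors and receptors off the cell surface, and the stated purpose was to measure the effect of its loss in glutamatergic neurons on gene expression in this nucleus. Because nothing says that the libraries of a genotype come from separate animals, p-values measure only the spread between these libraries.

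Prostaglandins are lipid messengers made from arachidonic acid, which phospholipases and lipid hydrolases free from membrane lipids. Cyclooxygenases turn arachidonic acid into prostaglandin H2, terminal synthases turn this into prostaglandin E2, D2 and other prostanoids, and G protein-coupled receptors read them out. In the brain Ptgs2 is switched on by synaptic activity in forebrain excitatory neurons and by inflammatory signals in blood vessels, Ptgs1 is typical of microglia, Ptgds is made by the meninges, the choroid plexus and oligodendrocytes, and Ptger3 in the hypothalamus serves fever and autonomic control.

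The promoter sequences of the cyclooxygenase genes are shown because their products catalyse the same reaction while of both genes only Ptgs2 separated the genotypes in CPM, the difference that chose the set. Both windows run from 250 bases before to 30 bases after the RefSeq transcription start (GRCm38.p6, plus strand, 5′ to 3′), the one of Ptgs2 at chr1:150099781-150100060 and the one of Ptgs1 at chr2:36230176-36230455. Capitals mark the searched motifs CGTCA, a part of the cAMP response element TGACGTCA, and CACGTG, an E-box.
Ptgs2: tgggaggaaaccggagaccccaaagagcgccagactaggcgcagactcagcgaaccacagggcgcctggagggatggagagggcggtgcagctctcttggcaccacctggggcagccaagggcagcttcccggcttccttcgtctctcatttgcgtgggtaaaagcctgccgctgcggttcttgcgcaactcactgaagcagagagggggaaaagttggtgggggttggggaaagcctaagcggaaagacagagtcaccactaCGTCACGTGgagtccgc
Ptgs1: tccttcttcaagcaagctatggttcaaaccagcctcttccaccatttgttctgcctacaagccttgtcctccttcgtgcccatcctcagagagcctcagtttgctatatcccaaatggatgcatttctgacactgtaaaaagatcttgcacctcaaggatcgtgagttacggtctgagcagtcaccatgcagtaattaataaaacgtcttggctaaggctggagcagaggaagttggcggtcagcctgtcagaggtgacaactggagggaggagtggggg
In Ptgs2 the letters CGTCA began at base 14 and CACGTG at base 17 after the start, counted from the start as base 1, and the motifs overlapped. The Ptgs1 window held neither of them on either strand. TGACGTCA and TATAAA were absent from both windows on either strand. Of 32851 windows of the same length in the RefSeq table, 19.9% held CGTCA, 6.79% CACGTG, 1.74% TGACGTCA and 13.1% TATAAA. Windows were found for all 8 genes: Ptges2 held CACGTG, Ptges3 held CGTCA, and Ptges, Ptgds, Ptger3 and Ptger4 held none of the 4 motifs.

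The libraries held 35114426 to 54421330 counts, so that 3 counts correspond to 0.055 to 0.085 CPM, the count scaled to library size. This floor rests on the plain library totals. The CPM values of genes are also scaled by TMM, so the floor is approximate on their scale. KO replicate 1 was the shallowest and stood apart, with 20.63% of its counts from mitochondrially encoded genes. That share was 9.2% in KO replicate 2 and 7.8% in KO replicate F1, and 7.26%, 7.22% and 7.64% in WT replicates 1, 2 and F1, so that every KO library lay above every WT library. Adam17 itself stood at 17.1 and 17.2 CPM in the WT males and 15.6 CPM in the WT female, against 15.4 and 14.5 CPM in the KO males and 13.9 CPM in the KO female, over the whole gene and all cell types, a difference short of the threshold (edgeR adjusted p = 0.747). Markers of the paraventricular nucleus were detected but low in summed CPM. Because CPM is not scaled to transcript length, the sums of different lists do not measure shares of tissue. The 9 genes of that list in the table summed to 137 to 258 CPM in WT and 98.7 to 201 CPM in KO, with the nucleus-defining transcription factor gene Sim1 between 0.63 and 2.51 CPM, while 13 markers of excitatory neurons of the cortex and hippocampus summed to 1806 to 3022 CPM in WT and 2836 to 3522 CPM in KO.

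The deposited TPM values, which are scaled to transcript length and so allow genes to be set against each other, differed widely among the 8 genes. Ptgds, the prostaglandin D2 synthase gene, led at 1821 ± 651 TPM (SD, n = 6) and made up 91.3% to 95.3% of the summed TPM of the 8 genes in each library. It was followed by Ptges3 at 85.2 ± 20.6 TPM, Ptges2 at 13.3 ± 3.60 TPM, Ptgs1 at 12.4 ± 2.11 TPM and Ptgs2 at 6.43 ± 1.27 TPM. Ptger3 stood at 4.42 ± 0.93 TPM, Ptges at 2.23 ± 0.48 TPM and Ptger4 at 1.04 ± 0.26 TPM. Each gene exceeded the next in this order in 6 of 6 libraries, except that Ptges2 exceeded Ptgs1 in 4 of 6, so these neighbours did not differ beyond their spread. Ptgs2 and Ptger3 were also close, at a TPM ratio between 1.08 and 2.14. In every library the D2 synthase gene exceeded each prostaglandin E synthase gene, and the inducible cyclooxygenase gene stayed below the constitutive Ptgs1.

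**Figure D1:**
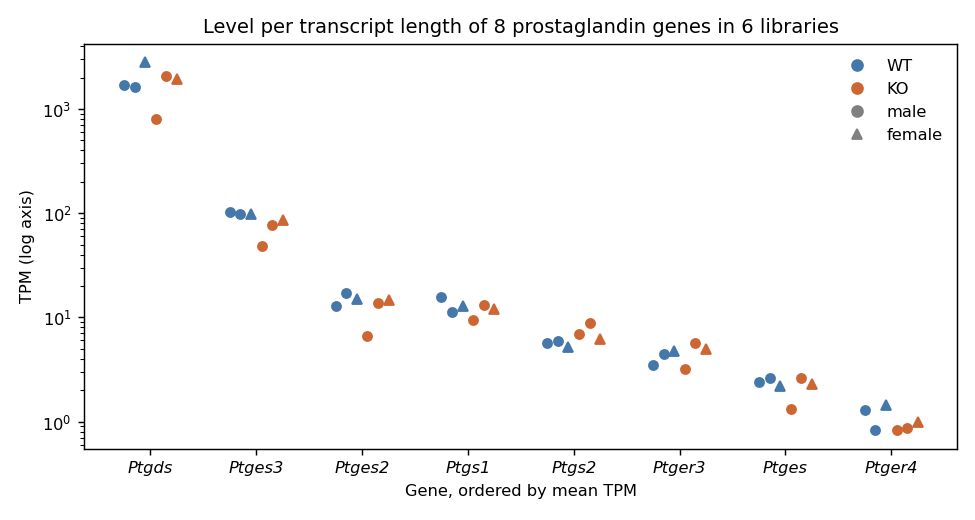
Deposited TPM (log axis) of the 8 genes in the 6 libraries, ordered by mean; each point is 1 library, coloured by genotype, with circles for males and triangles for females. Ptgds lies near 1821 TPM and Ptger4 near 1.04 TPM, and the points of Ptges2 and Ptgs1 overlap.

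Between genotypes, levels were compared in CPM after TMM scaling, which aligns the libraries on the bulk of their genes. Of the 7 genes taken as the pathway of Ptgs2, 0 passed an adjusted p of 0.05 in edgeR, where 1 of 18956 genes tested passed (0.00528%), and 0 passed in DESeq2, where 76 of 20488 genes did (0.371%). All 8 genes passed the filter on low counts. At an unadjusted p under 0.05 in edgeR only Ptges3 was found among the 7, against 6.38% of all genes tested. Among the 7, Ptges3 was lower in KO than in WT in every library, against 7.32% of all genes with no overlap in this direction. Ptgs2 was higher in KO in every library, which is only a description, because this difference chose the set. Of all genes 6.61% had no overlap in that direction. For the whole set of 8, the chosen Ptgs2 included, the median log2 fold change was −0.06, beside −0.004 over all genes tested. Of the 8 genes 3 lay above 0 and 5 below. In bulk tissue, fewer cells of a type and less RNA per cell cannot be told apart.

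**Figure D2:**
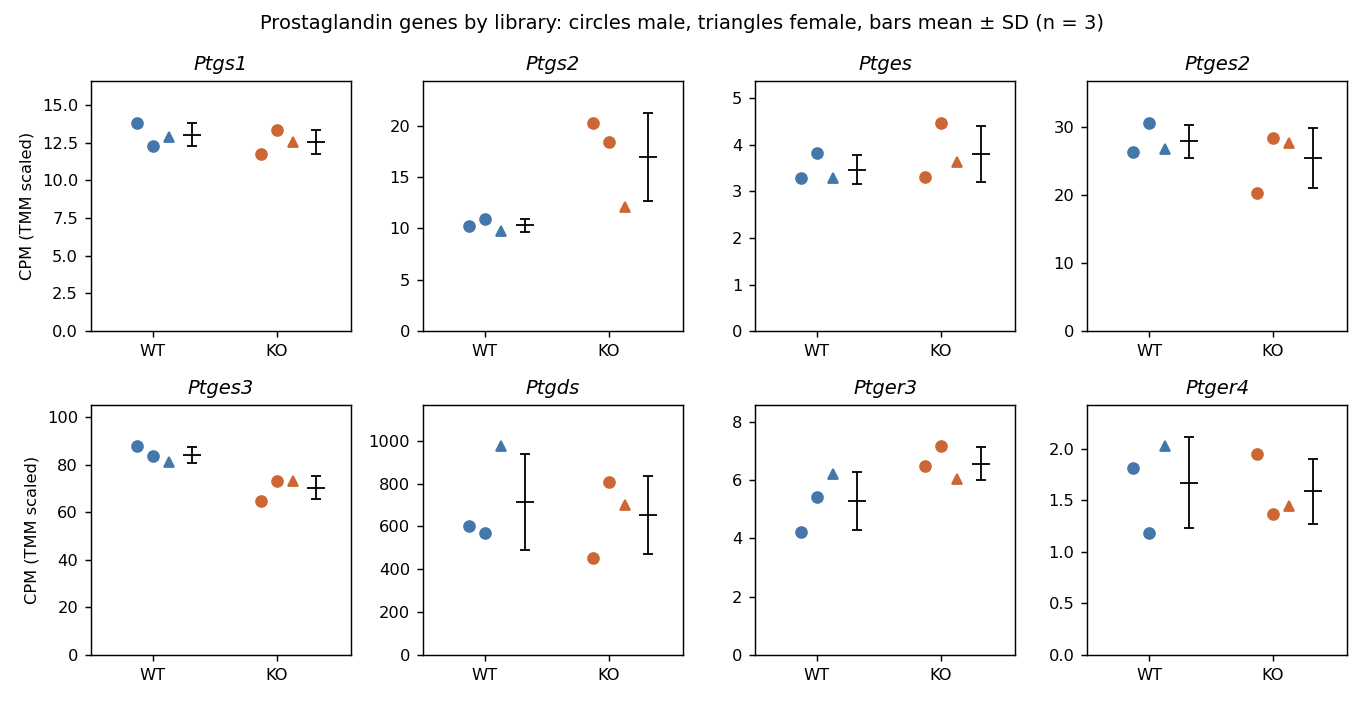
CPM (TMM scaled, axes from 0) of the 8 genes by library; circles are males, triangles females, and bars give the mean ± SD of 3 libraries. In Ptgs2 the KO libraries, between 12.1 and 20.3 CPM, lie above the WT libraries, and in Ptges3 they lie below, while the genotypes overlap in the other 6 genes.

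Ptgs2 (ENSMUSG00000032487, chromosome 1, 150100031 to 150108227, plus strand, GRCm38), the inducible cyclooxygenase gene, had 462 and 465 counts in the WT males and 572 counts in the WT female, against 584 and 825 counts in the KO males and 493 counts in the KO female. Scaled to depth this was 10.2 and 10.9 CPM in the WT males and 9.71 CPM in the WT female, against 20.3 and 18.4 CPM in the KO males and 12.1 CPM in the KO female. The WT libraries lay close together, the male KO libraries lay highest and the female KO library only a little above the highest WT library. On average WT reached 10.3 ± 0.62 CPM and KO 16.9 ± 4.31 CPM (SD, n = 3 each), a 1.65-fold difference and a log2 fold change of 0.69 (SE 0.155). This is the difference that led to the choice of the genes, and 516 of the 18956 genes tested had a log2 fold change as high or higher. Without 1 library at a time it lay between 0.60 and 0.87. In males alone it was 0.87, and between the females the log2 difference was 0.32. The difference between the sexes, a contrast that did not enter the choice, was −0.56 (SE 0.27) on the log2 scale and did not pass the test of genotype by sex (edgeR adjusted p = 0.754), where 14 of 18956 genes passed (0.0739%), a count that ran from 1 to 282 under other settings. In the deposited TPM the genotypes did not overlap either, at 5.65 and 5.95 TPM in the WT males and 5.17 TPM in the WT female, against 6.86 and 8.76 TPM in the KO males and 6.18 TPM in the KO female. The antisense gene Ptgs2os begins just upstream of Ptgs2 on the other strand without overlapping it and stood between 0.25 and 0.97 CPM.

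In their list means, activity-regulated genes and forebrain markers moved with Ptgs2 across the libraries. The mean log2 CPM of 22 immediate early genes, transcription factor and effector genes that neurons switch on with activity, was 4.56 and 4.77 in the WT males and 4.33 in the WT female, against 5.09 and 5.09 in the KO males and 4.70 in the KO female. The 13 excitatory forebrain markers stood at 6.06 and 6.20 in the WT males and 5.76 in the WT female, against 6.58 and 6.53 in the KO males and 6.05 in the KO female. Like Ptgs2, both lists were highest in the male KO libraries and lowest in WT replicate F1, but in both the female KO library lay below WT replicate 2. Of the immediate early genes 21 of 22 had log2 fold changes above 0 (median 0.40) and of the forebrain markers 13 of 13 (median 0.43), beside 49.4% of all genes tested. By edgeR 0 genes of either list passed, with 9 of 22 and 6 of 13 at an unadjusted p under 0.05, and by DESeq2 3 of the immediate early genes and 0 of the forebrain markers passed. Over all genes 6.38% had an unadjusted p under 0.05 in edgeR and 0.371% passed in DESeq2. The 9 paraventricular nucleus markers went mostly the other way, with 2 log2 fold changes above 0 and 7 below (median −0.25). Of these 9 genes 0 passed in edgeR or DESeq2 and 0 had an unadjusted p under 0.05. The mitochondrial share of counts had the same order in KO as Ptgs2, highest in replicate 1 and lowest in replicate F1, but in WT it was highest in replicate F1, where Ptgs2 was lowest. The log2 fold changes of the 13 mitochondrial genes all lay above 0 (median 1.06), 0 passed in edgeR and 1 had an unadjusted p under 0.05. Without KO replicate 1 the log2 fold change of Ptgs2 was 0.60. The part of these lists and of the mitochondrial share in the Ptgs2 difference was not tested. Egr1, an activity-induced zinc finger factor gene, stood at 214 and 251 CPM in the WT males and 104 CPM in the WT female, against 397 and 255 CPM in the KO males and 211 CPM in the KO female. Arc, an effector gene of the same list, stood at 86.4 and 105 CPM in the WT males and 49.6 CPM in the WT female. Its KO levels were 75.6 and 67.0 CPM in the males and 93.9 CPM in the female. Arc was thus lower in KO in the males and higher in the females (log2 fold change 0.015, SE 0.28). Microglia markers, whose cells can also make prostaglandins, summed to 365 to 411 CPM in WT and 345 to 431 CPM in KO. Endothelial markers summed to 287 to 316 CPM in WT and 285 to 316 CPM in KO, so both sums overlapped between the genotypes. Of the 12 microglia markers 0 passed in edgeR, 2 had an unadjusted p under 0.05 there and 1 passed in DESeq2. Of the 9 endothelial markers these numbers were 0, 0 and 0.

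The genes most like Ptgs2 in their log2 CPM over the 6 libraries, out of 15454 with a mean of at least 1 CPM, were the amino acid transporter gene Slc7a8 (Pearson r 0.997), the ferrochelatase gene Fech (0.996), the RNA-binding protein gene Ewsr1 (0.995), the splicing factor gene Sf3b4 (0.995) and Pdap1 (0.992). These are a ranking of many genes over few libraries, which differ in genotype and depth. Slc7a8 averaged 70.3 CPM over the WT libraries and 97.3 CPM over the KO libraries. A higher level in KO follows from the ranking by likeness to Ptgs2, so it is given as a description without a test.

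**Figure D3:**
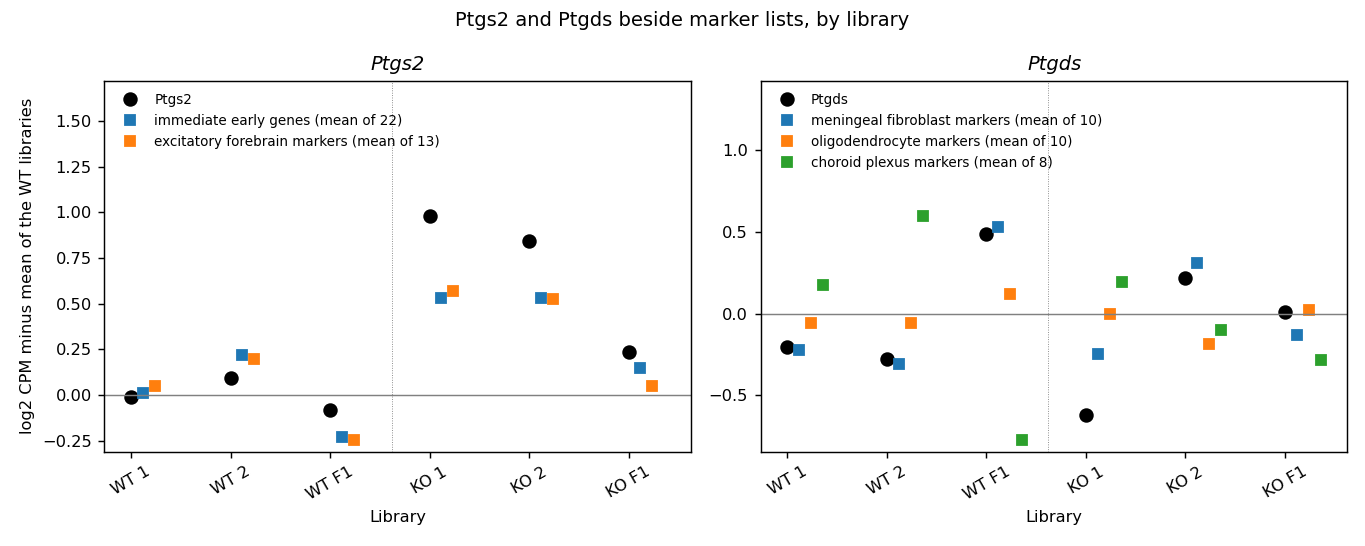
Left, log2 CPM of Ptgs2 and the mean log2 CPM of 22 immediate early genes and 13 excitatory forebrain markers in each library; right, Ptgds with meningeal fibroblast, oligodendrocyte and choroid plexus markers; all as the difference from the mean of the WT libraries. Ptgs2 and its marker lists are highest in KO replicates 1 and 2, and Ptgds and the meningeal markers are highest in WT replicate F1.

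Ptgs1 (ENSMUSG00000047250, chromosome 2, 36230426 to 36252272, plus strand), the constitutive cyclooxygenase gene, was almost level. Ptgs1 measured 13.8 and 12.3 CPM in the WT males and 12.9 CPM in the WT female, against 11.7 and 13.3 CPM in the KO males and 12.5 CPM in the KO female. The genotypes overlapped and every library lay within 11.7 to 13.8 CPM. Its log2 fold change was −0.05 (SE 0.12, edgeR adjusted p = 0.923). Set against Ptgs1, the TPM ratio of Ptgs2 to Ptgs1 was 0.357 and 0.527 in the WT males and 0.403 in the WT female, against 0.722 and 0.669 in the KO males and 0.519 in the KO female, so that the female KO library fell just below WT replicate 2 on this measure. The ratio of their counts was 0.739 and 0.891 in the WT males and 0.754 in the WT female, against 1.73 and 1.39 in the KO males and 0.965 in the KO female, with every KO library above every WT library. The scales differ because TPM per count of Ptgs1 varied between libraries by 1.4-fold and was lowest in WT replicate 2.

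Among the prostaglandin E synthases, Ptges3 showed the clearest separation. Its product, p23, is above all a co-chaperone of HSP90 and can act as a cytosolic prostaglandin E synthase. Ptges3 (ENSMUSG00000071072, chromosome 10, 128058954 to 128077272, plus strand) stood at 87.8 and 83.9 CPM in the WT males and 81.1 CPM in the WT female, against 64.8 and 73.3 CPM in the KO males and 73.5 CPM in the KO female. All 3 KO libraries lay below the lowest WT library, KO replicate 1 most of all. Its log2 fold change was −0.26 (SE 0.10), which missed the threshold (edgeR adjusted p = 0.735), and without KO replicate 1, the library rich in mitochondrial counts, it was −0.19. Other genes of the HSP90 system lay on both sides of 0. Of 10 such genes 5 had log2 fold changes above 0 and 5 below, none passed, and the median was 0.001. Hsp90ab1, the constitutive cytosolic HSP90 gene, stood at 1639 and 1697 CPM in the WT males and 1474 CPM in the WT female, against 1767 and 1809 CPM in the KO males and 1581 CPM in the KO female (log2 fold change 0.10, SE 0.09), and Fkbp5, a glucocorticoid-induced co-chaperone gene, had a log2 fold change of 0.14 (SE 0.11).

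Ptges (ENSMUSG00000050737, chromosome 2, 30889471 to 30929863, minus strand), the inducible microsomal prostaglandin E synthase gene that is often induced together with Ptgs2, was low and overlapped between the genotypes. Its level was 3.29 and 3.82 CPM in the WT males and 3.28 CPM in the WT female, against 3.30 and 4.47 CPM in the KO males and 3.63 CPM in the KO female. KO replicate 1, the shallowest library and the one where Ptgs2 was highest, had 95 counts of Ptges. Its 3.30 CPM lay beside the 3.29 and 3.28 CPM of WT replicates 1 and F1. The log2 fold change was 0.14 (SE 0.19, edgeR adjusted p = 0.873).

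Ptges2 (ENSMUSG00000026820, chromosome 2, 32395896 to 32405772, plus strand), which encodes a second membrane-associated synthase, stood at 26.3 and 30.6 CPM in the WT males and 26.7 CPM in the WT female, against 20.4 and 28.4 CPM in the KO males and 27.6 CPM in the KO female. KO replicate 1 lay below the rest and the other KO libraries lay within the WT range. The log2 fold change was −0.13 (SE 0.16, edgeR adjusted p = 0.848), and 0.02 without KO replicate 1.

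Ptgds (ENSMUSG00000015090, chromosome 2, 25466709 to 25470046, minus strand), whose product makes prostaglandin D2 and is also a secreted carrier of small lipophilic molecules, varied more between libraries than between genotypes. Ptgds reached 601 and 572 CPM in the WT males and 974 CPM in the WT female, against 451 and 809 CPM in the KO males and 699 CPM in the KO female. WT replicate F1 was highest and KO replicate 1 lowest, and the genotypes overlapped. On average WT reached 715 ± 224 CPM and KO 653 ± 183 CPM (SD, n = 3 each), with a log2 fold change of −0.09 (SE 0.23, edgeR adjusted p = 0.931). The sign depended on single libraries, at −0.42 without KO replicate 2, 0.10 without either female library and 0.07 without KO replicate 1. Between the males the log2 difference was 0.04 and between the females −0.48, and the test of genotype by sex did not pass (−0.58, SE 0.47, edgeR adjusted p = 0.895).

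Markers of the meninges stood beside Ptgds in several libraries. The mean log2 CPM of 10 meningeal fibroblast markers was 3.12 and 3.04 in the WT males and 3.88 in the WT female, against 3.10 and 3.65 in the KO males and 3.21 in the KO female, highest where Ptgds was highest. Dcn, the decorin gene of fibroblasts, stood at 11.4 and 14.2 CPM in the WT males and 41.3 CPM in the WT female, against 17.6 and 33.4 CPM in the KO males and 12.3 CPM in the KO female. Igf2, of the same list, did not follow Ptgds. It stood at 22.5 and 75.9 CPM in the WT males and 32.8 CPM in the WT female. In KO it was at 38.5 and 46.6 CPM in the males and 49.0 CPM in the female. Igf2 was thus highest in WT replicate 2, where Ptgds was at 572 CPM. The 10 oligodendrocyte markers varied less, from 7.09 to 7.27 in WT and 6.96 to 7.17 in KO, and the 8 choroid plexus markers ran from 2.55 in WT replicate F1 to 3.92 in WT replicate 2. Ttr, the transthyretin gene that defines choroid plexus, was 135 CPM in WT replicate F1, the lowest of the 6 libraries, where Ptgds was highest. None of these markers was at 0 in all libraries, and their part in the spread of Ptgds was not tested. The genes most like Ptgds over the 6 libraries were Fam83h (Pearson r 0.996), the translational regulator gene Cpeb1 (0.989), Dpysl4 (0.988), the tubulin gene Tubb2a (0.988) and the endothelin gene Edn3 (0.986), out of 15454 genes.

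The receptors were low in level. Ptger3 (ENSMUSG00000040016, chromosome 3, 157566892 to 157645888, plus strand), the gene of the inhibitory EP3 receptor, stood at 4.22 and 5.42 CPM in the WT males and 6.22 CPM in the WT female, against 6.50 and 7.15 CPM in the KO males and 6.03 CPM in the KO female. Both male KO libraries lay above every WT library, while the female KO library lay just below the female WT library. The log2 fold change was 0.32 (SE 0.19, edgeR adjusted p = 0.747). Its value was 0.50 in males alone, and 0.17 without WT replicate 1.

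Ptger4 (ENSMUSG00000039942, chromosome 15, 5206661 to 5244187, minus strand), the gene of the stimulatory EP4 receptor, had only 50 to 119 counts per library. The level of Ptger4 was 1.81 and 1.18 CPM in the WT males and 2.02 CPM in the WT female, against 1.95 and 1.36 CPM in the KO males and 1.45 CPM in the KO female. The genotypes overlapped, and the log2 fold change of −0.07 (SE 0.30, edgeR adjusted p = 0.955) has an error too wide to show a difference of the size seen in Ptger3. Ptger4 overlaps Ttc33 on the other strand, which stood between 25.2 and 31.9 CPM, so its counts are uncertain because the counting strand is not given.

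Around these genes, 45 further genes of 5 lists covering arachidonate release, other synthases, other receptors, transport and breakdown, and lipoxygenases were in the table, and 40 passed the filter. By edgeR 0 of the 40 passed and 2 had an unadjusted p under 0.05, against 6.38% of all genes, and by DESeq2 1 passed. Their median log2 fold change was −0.06 with 16 of 40 above 0, beside −0.004 and 49.4% over all genes tested.

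The gene called by DESeq2 was Pla2g4e, which encodes a calcium-dependent acyltransferase of the cytosolic phospholipase A2 family. Pla2g4e measured 6.72 and 6.97 CPM in the WT males and 25.3 CPM in the WT female, against 27.4 and 25.8 CPM in the KO males and 28.9 CPM in the KO female. The male WT libraries lay far below the rest, and the female WT library lay just under the KO libraries. The log2 fold change was 1.37 (SE 0.37), with an adjusted p of 0.735 in edgeR and 0.0178 in DESeq2. Its log2 difference was 1.96 between the males and 0.19 between the females, and the test of genotype by sex did not pass (edgeR adjusted p = 0.148). Of the arachidonate release list 7 of 11 tested genes were above 0 and 4 below. Pla2g4b, a related phospholipase gene, had −1.34 (SE 0.62) at 0.35 to 3.87 CPM and overlaps another tested gene. Mgll, the monoacylglycerol lipase gene that supplies much of the arachidonate for prostaglandins in brain, was the most abundant of the list at 102 TPM and stood at 138 and 224 CPM in the WT males and 118 CPM in the WT female, against 162 and 194 CPM in the KO males and 214 CPM in the KO female (log2 fold change 0.27, SE 0.25, edgeR adjusted p = 0.813).

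Among other terminal synthases 1 of 6 tested genes lay above 0 and 5 below. Fam213b, a prostamide and prostaglandin F synthase gene, was at 29.2 and 27.7 CPM in the WT males and 30.5 CPM in the WT female, against 13.6 and 24.9 CPM in the KO males and 28.6 CPM in the KO female (log2 fold change −0.40, SE 0.23, edgeR adjusted p = 0.747), lowest in KO replicate 1. Akr1b3, an aldo-keto reductase gene with prostaglandin F synthase activity, had −0.16 (SE 0.12), and the carbonyl reductase gene Cbr1, the most abundant of the list at 112 TPM, had −0.02 (SE 0.13). Of the 6 genes tested in the list of other receptors, which also holds the receptor regulator gene Ptgfrn, 3 were above 0 and 3 below. Ptgfr, the prostaglandin F receptor gene, had −0.25 (SE 0.24) and its regulator gene Ptgfrn 0.13 (SE 0.19). The receptor genes Ptgdr2 and Ptgir had at most 25 counts in a library and were not tested.

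In transport and breakdown, 3 of 7 tested genes were above 0. Ptgr1, a prostaglandin reductase gene, stood at 0.66 to 1.48 CPM and had a log2 fold change of −0.61 (SE 0.31), Hpgd, the 15-hydroxyprostaglandin dehydrogenase gene that starts prostaglandin breakdown, had 0.27 (SE 0.19), and Ptgr2 had −0.17 (SE 0.16). In the lipoxygenase and leukotriene branch 2 of 10 tested genes were above 0 and 8 below. Alox8, a lipoxygenase gene, stood at 5.90 and 8.13 CPM in the WT males and 9.43 CPM in the WT female, against 4.69 and 4.87 CPM in the KO males and 6.84 CPM in the KO female, overlapping between the genotypes (log2 fold change −0.52, SE 0.17, edgeR adjusted p = 0.735). Alox5ap, the gene of the 5-lipoxygenase activating protein, had −0.50 (SE 0.22) and Lta4h, the leukotriene A4 hydrolase gene, −0.11 (SE 0.12). None of these genes passed the test.

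**Figure D4:**
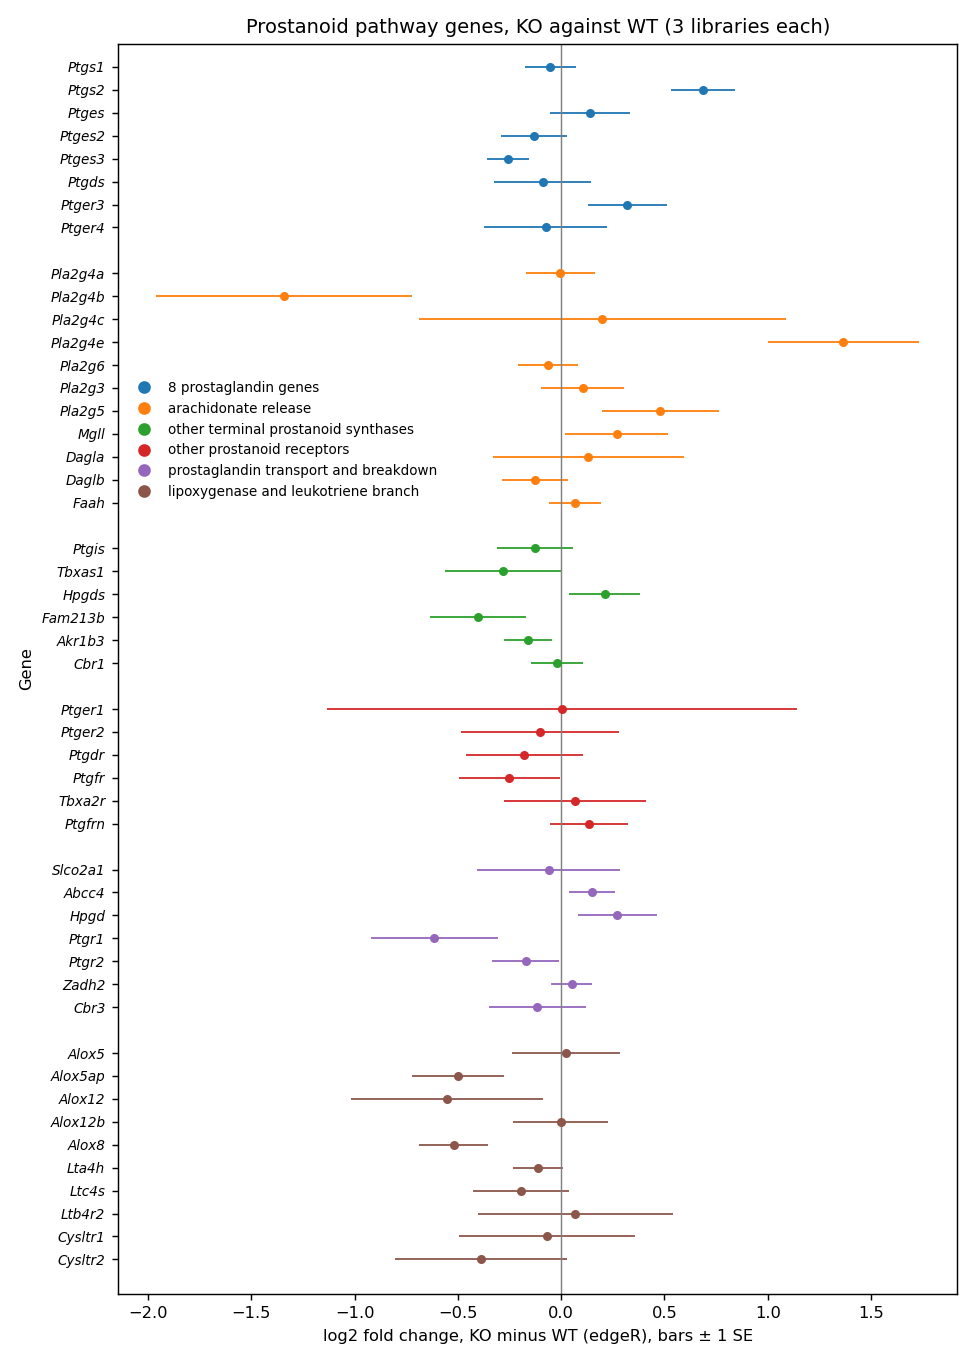
Log2 fold changes, KO minus WT, from edgeR for the 8 genes and the 40 tested genes of 5 pathway lists, with bars of 1 SE (3 libraries per genotype). Ptgs2 at 0.69 stands to the right of the other 7 genes, and Pla2g4e at 1.37 and Pla2g4b at −1.34 lie farthest out.

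**Figure D5:**
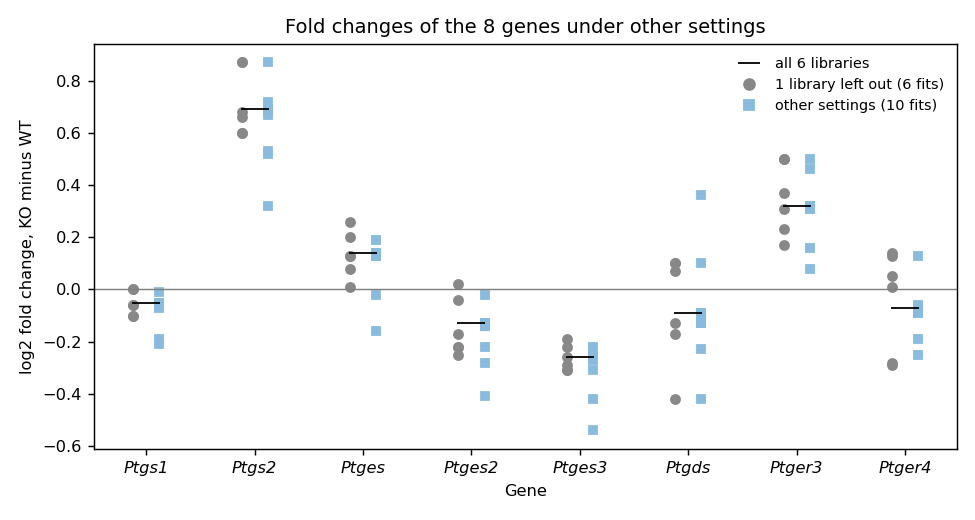
Log2 fold changes, KO minus WT, of the 8 genes with all 6 libraries (black bars), with 1 library left out (grey circles) and under other settings (blue squares). Ptgs2 and Ptger3 stay above 0 and Ptges3 stays below 0 in all of these fits, whereas Ptgds runs from −0.42 to 0.36.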

How the data were processed

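Messenger RNA libraries of 6 mouse tissue samples were sequenced, and for every gene the deposited table gives each library's read count, TPM and FPKM, per the file headers. The submitters' processing notes name FastQC 0.11.2, Trimmomatic 0.36 and bedtools 2.26.0. Which aligner, counting tool, strand setting and build they used is not given in the sources used here. Of the gene identifiers 99.6% were in GENCODE M21 (GRCm38), and 94.1% of these had the same coordinates there. The deposited counts were tested as they stand, the deposited TPM served for levels between genes and for one alternative, and the deposited FPKM, proportional to TPM inside each library, had no further use.

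Genes kept by filterByExpr (18956) were scaled by TMM and tested with edgeR 4.0.16 in R 4.3.3, using robust quasi-likelihood fits with genotype and sex as terms and Benjamini-Hochberg adjustment over all genes at 0.05. Genotype by sex was tested by adding their product. The SE of a log2 fold change is its size over the root of F. This SE includes the spread between libraries that the fit estimates, whereas the floor of 3 counts covers counting error only. Alternatives used DESeq2 1.42.0, limma 3.58.1 on log2(TPM + 1), other scalings, filters, terms and left-out libraries. The fit was tested on simulated data. The members, lists and alternatives were chosen with earlier results of these data known. Genes named from each list were the 2 with the smallest p and the most abundant by TPM. For likeness of pattern the 5 genes with the largest Pearson r were named, gene models without a proper name being left out. Adam17 served as the label check. Egr1, Arc, Dcn, Igf2, Ttr, Sim1, Ptgs2os and Ttc33 were chosen after their values were seen. Promoter sequences are from RefSeq (GRCm38.p6).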

Additional observations from a re-analysis of the deposited data

Results flagged for a closer look

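The values of Ptger3 had opposite signs in males and females. Both male KO libraries lay above both male WT libraries, a log2 difference of 0.51, while the female KO library lay just below the female WT library (−0.04, 1 library each). The test of genotype by sex did not pass for Ptger3 (−0.55, SE 0.36, edgeR adjusted p = 0.864).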

How the results depend on the processing

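Of the 7 genes other than Ptgs2 none passed an adjusted p of 0.05 for genotype under any of the 16 alternatives, and none of the 8 for genotype by sex under any of the 7 run for it. The directions of Ptgs2, Ptger3 and Ptges3 were kept in all 16, with Ptgs2 between 0.32 and 0.87. Its lowest value came from log2(TPM + 1), where the median of all genes was −0.24, and with library totals the median was −0.17 and Ptgs2 0.52. Ptges turned to −0.02 with library totals and −0.16 with log2(TPM + 1). Ptgds turned to 0.10 in males only and 0.36 in a fit that lacked WT F1 and KO 1 and had no sex term, and Ptger4 to 0.13 in males only. With 1 library left out at a time the ranges were −0.10 to 0.00 for Ptgs1, 0.60 to 0.87 for Ptgs2, 0.01 to 0.26 for Ptges, −0.25 to 0.02 for Ptges2, −0.31 to −0.19 for Ptges3, −0.42 to 0.10 for Ptgds, 0.17 to 0.50 for Ptger3 and −0.29 to 0.14 for Ptger4. Fits that drop a female take the genotype contrast from the males, since sex is a term. They are not identical to the males-only fit, because 19202 genes without WT F1 and 19465 without KO F1 were tested, against 19008. The number of genes past the threshold over the whole table, 1 in edgeR, was 4 with no filter beyond 1 count, 76 in DESeq2, 3 without sex, 18 in males only, 4 with log2(TPM + 1), 27 in the fit lacking WT F1 and KO 1, and 0 to 20 with 1 library left out. For genotype by sex the 14 genes became 1 with library totals, 6 with at least 10 counts in every library, 33 with log2(TPM + 1), 36 with no filter beyond 1 count, 211 in DESeq2 and 282 with the replicate block. The cause of these changes was not tested. With the replicate number as a replicate block 0 genes passed for genotype. Same-numbered libraries did not deviate together (r = −0.036, 0.026 and 0.029 for replicates 1, 2 and F1), so the numbers were not taken as pairs.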

Other observations

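The deposited TPM was not a fixed multiple of the deposited count for every gene. After each library was scaled by its median, TPM per count varied between libraries by 1.4-fold for Ptgs1, and by 1.01-fold for Ptgds and 1.05-fold for Ptgs2. In Ptgs1 it was highest in KO replicate 1 (1.22) and lowest in WT replicate 2 (0.869), relative to the mean of the gene.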
